A study of Mus musculus with 6 samples.

Results

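The genes described here are 10 genes of the lipid droplet and of lipolysis, measured in mouse liver: Lpl, Angptl4, Plin2, Plin4, Plin5, Cidea, Cidec, Pnpla2, Mgll and G0s2. They were picked by gene symbol from 16887 named genes on the array, and each of the 10 has 1 probe. Liver RNA of 6 C57BL/6 mice was hybridised on 2-colour oligonucleotide arrays, with a separate array for each mouse and, in the other dye, pooled liver RNA of 6 mice kept on a standard chow diet. All mice were 7 weeks old. The 6 mice with arrays of their own ate the high-fat cholesterol (HFC) diet, called high fat in the sample names, for 12 days. Fenofibrate at 100 mg/kg was given orally once daily from day 5 to 2 of them, lovastatin at 30 mg/kg to 2, and the 2 mice of the HFC group had the diet and, per the series' design text, vehicle. The lovastatin group follows the sample titles, while the treatment text of those samples names fenofibrate. The chow pool stands for all control mice at once, so the spread between chow-fed mice was not measured.

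Hepatocytes store surplus fatty acids as triglyceride in lipid droplets, whose surface is covered by perilipins and CIDE proteins. Triglyceride lipases and the proteins that hold them back set how fast the stored fat is released. Lipoprotein lipase frees fatty acids from circulating lipoproteins before uptake, and is made at a low level in the liver of adult animals. Fenofibrate activates PPARα, a nuclear receptor that drives fatty acid oxidation and also several droplet genes in mice. Lovastatin inhibits HMG-CoA reductase, the rate-limiting enzyme of cholesterol synthesis.

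Each value below is a log2 ratio of a mouse over the chow pool, so 1 unit is a doubling. That direction is likely but not stated: in the labels the first channel always holds the mouse. Base 2 was taken by convention. The mouse carried Cy3 on the fenofibrate arrays and Cy5 on the lovastatin and HFC arrays, so for a single gene fenofibrate and dye cannot be told apart. HFC replicate 2 holds displaced values in 4 of 8 blocks of array columns, which contain 10703 probes (50.3%), among them those of Plin2, Plin4, Cidea, Cidec, Pnpla2 and Mgll. In these blocks the correlation with the other arrays was -0.0374 to 0.0232 as deposited and 0.299 to 0.315 after each block was rotated along the array rows. For these 6 genes HFC replicate 2 was left out of the main fit, so their HFC group has n = 1 there. The rotated value is given as "put back" and entered only the fits named so. The arrays also differed in spread, with an SD over all probes of 1.09 on lovastatin replicate 1 and 0.419 to 0.574 on the others. Only ratios were used here, so the level of a gene, and whether its probe was above background, are unknown. In whole liver, fewer cells of a type and less RNA per cell cannot be told apart.

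Ratios lay above 0 on every array used for 6 of the 10 genes, namely Lpl, Plin2, Plin4, Plin5, Cidec and Mgll. Over all features with 5 or 6 arrays this held for 7.23%. With the direction of the fenofibrate ratios alone turned, an alternative chosen after seeing the data, 1 of the 10, G0s2, would lie above 0 on every array, against 3.32% of all features. As read, the fenofibrate arrays correlated with those of the other groups at 0.0615 to 0.319 across features. Each order below that places the fenofibrate mice above or below others rests on this reading. With the displaced block put back, Plin2 left that count and 5 of the 10 were above 0 on every array, against 6.14% of all features. None of the 10 lay below 0 on every array used, against 7.14% of all features. The comparison of all HFC-fed mice with the pool gave both dye orientations equal weight and was tested with limma at an adjusted p of 0.05. In it 1 of the 10 genes was called, Lpl, which rose, where 0.561% of all features were called and 0.17% were called higher. Those 109 features were 33 higher and 76 lower (80 and 113 after quantile normalization, 1 and 6 with the arrays scaled to a common spread). At an unadjusted p under 0.05 there were 7 of 10 genes, Lpl, Angptl4, Plin2, Plin4, Plin5, Cidec and Mgll, against 10.8% of all features. With the block put back Plin2 left this count, and 6 of 10 stood against 12.6%. With the fenofibrate ratios turned, 0 features passed the adjusted test.

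**Figure D1:**
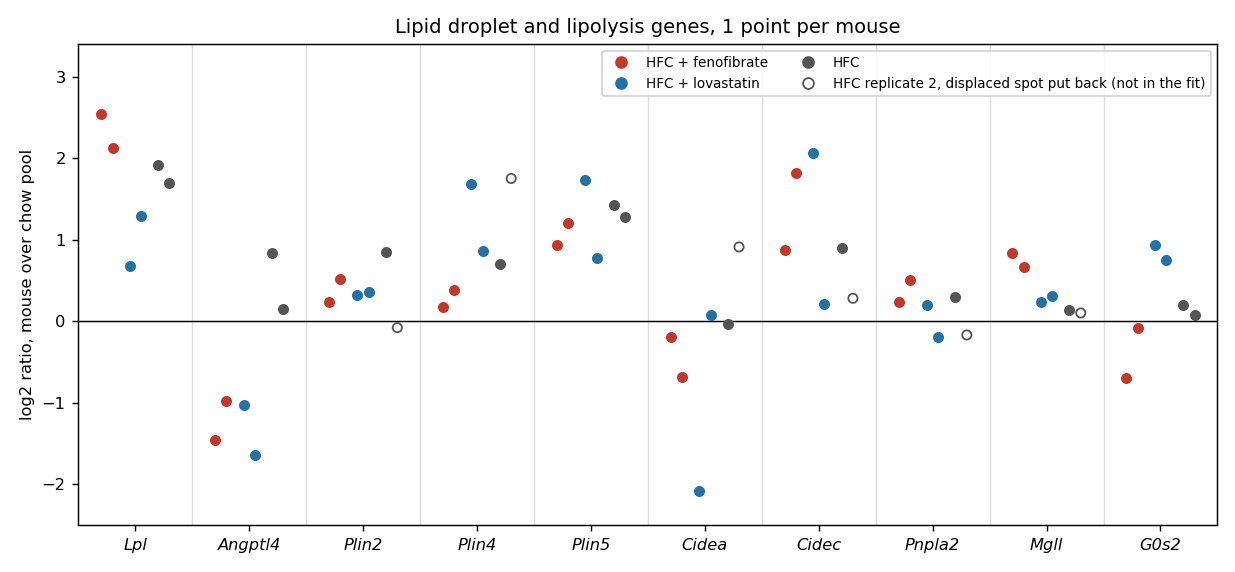
Log2 ratio of each mouse over the chow pool (y axis) for the 10 genes (x axis), 1 point per mouse, with fenofibrate, lovastatin and HFC mice side by side within each gene. Filled points entered the fit and open points are displaced spots of HFC replicate 2 put back. Lpl lies between 0.68 and 2.54 on all 6 arrays, and Angptl4 lies below 0 on the 4 drug arrays and above 0 on the 2 HFC arrays.

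Among the droplet coat proteins, Plin5 has a product that tethers droplets to mitochondria and is abundant in oxidative tissues. Plin5 read 0.94 and 1.20 in fenofibrate mice, 1.73 and 0.77 in lovastatin mice, and 1.43 and 1.28 in HFC mice. All 6 livers were thus above the pool, and the ranges of the lovastatin and HFC mice overlapped. Over all HFC-fed mice the ratio was 1.19 with an SE of 0.166, a 2.28-fold difference, at a limma adjusted p of 0.0736, above the threshold. It passed when a lovastatin array was left out, at 1.07 (limma adjusted p = 0.0265) without replicate 1 and 1.31 (0.0148) without replicate 2. It did not pass without the first or second fenofibrate array, at 1.25 (limma adjusted p = 0.575) and 1.12 (0.891), or without the first or second HFC array, at 1.17 (0.244) and 1.20 (0.214). It also passed with array weights (1.19, limma adjusted p = 0.0245), without the noisiest features (1.19, 0.0188) and after quantile normalization (1.32, 0.0303).

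Plin2 encodes adipophilin, the main perilipin of the fatty liver cell, and its ratios were small. They were 0.23 and 0.52 in fenofibrate mice, 0.32 and 0.36 in lovastatin mice, and 0.85 in HFC replicate 1, with -0.08 put back for HFC replicate 2. The 5 arrays used were all above the pool by less than 1 unit, and the put-back value lay near it. The comparison over all HFC-fed mice gave 0.48 (SE 0.127, limma adjusted p = 0.299), and 0.37 with the block put back (adjusted p = 0.435).

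Plin4 encodes a perilipin that coats nascent droplets in adipocytes. Its values were 0.17 and 0.38 in fenofibrate mice, 1.68 and 0.86 in lovastatin mice, and 0.70 in HFC replicate 1, with 1.75 put back. The fenofibrate mice were the lowest and lay below both lovastatin mice, as held for 20.2% of features with all 4 arrays. Over all HFC-fed mice Plin4 stood at 0.63 (SE 0.179, limma adjusted p = 0.334).

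The CIDE proteins channel lipid between touching droplets and so enlarge them. Cidec, also known as Fsp27 and a mark of the steatotic liver in mice, had ratios of 0.87 and 1.82 in fenofibrate mice, 2.06 and 0.21 in lovastatin mice, and 0.90 in HFC replicate 1, with 0.28 put back. Every array was above the pool, but replicates of a group were as far apart as the groups. Its ratio over all HFC-fed mice was 1.18, a 2.27-fold difference, with an SE of 0.35 (limma adjusted p = 0.353). It passed in a single setting, without lovastatin replicate 2, at 1.41 (limma adjusted p = 0.0433), where the lone lovastatin mouse left was that of the array with an SD of 1.09. Without lovastatin replicate 1 it was 0.95 (limma adjusted p = 0.156), without the first or second fenofibrate array 1.42 (0.887) and 0.94 (0.999), and with the block put back 1.10 (0.222).

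Cidea, which the mouse liver turns on in steatosis, did not share that pattern. It read -0.20 and -0.69 in fenofibrate mice, -2.08 and 0.08 in lovastatin mice, and -0.04 in HFC replicate 1, with 0.91 put back. The lowest value came from the widest array, lovastatin replicate 1, and the other lovastatin mouse was at the level of the pool. The overall ratio was -0.48 with an SE of 0.37 (limma adjusted p = 0.72).

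Upstream stretches of the droplet genes with the most letters of the PPAR response element are shown because their ratios lay above the pool in every mouse used. RefSeq promoters (GRCm38.p6) were searched for 7 of the 10 genes, and only the bases upstream of the annotated gene were kept. Lpl, Angptl4 and Cidea were not searched. The element searched was AGGTCANAGGTCA, 2 AGGTCA repeats with 1 free base between them, with 12 fixed letters counted on both strands. Capitals mark the best match of each stretch, written 5′ to 3′ in the direction of the gene. All 3 genes lie on the minus strand, at chr17:56117607-56117798 for Plin5, chr6:113435761-113436010 for Cidec and chr4:86670218-86670309 for Plin2.
Plin5: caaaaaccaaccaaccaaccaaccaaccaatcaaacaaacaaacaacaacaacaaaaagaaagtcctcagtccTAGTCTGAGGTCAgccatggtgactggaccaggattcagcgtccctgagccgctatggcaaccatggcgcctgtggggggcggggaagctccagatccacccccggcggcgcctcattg
Cidec: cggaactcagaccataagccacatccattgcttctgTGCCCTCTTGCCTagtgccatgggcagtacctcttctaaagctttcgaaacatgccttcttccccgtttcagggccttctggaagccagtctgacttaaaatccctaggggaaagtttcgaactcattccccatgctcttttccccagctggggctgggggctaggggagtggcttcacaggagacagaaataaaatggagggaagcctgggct
Plin2: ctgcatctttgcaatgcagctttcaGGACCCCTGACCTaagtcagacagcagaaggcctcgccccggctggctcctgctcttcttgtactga
Plin2 matched 10 of the 12 letters, on the opposite strand, as did or bettered 1.11% of 32851 promoter windows of the same length. Plin5 matched 9, against 16.9% of windows of its length, and Cidec matched 9 on the opposite strand, against 21.3%. The other 4 matched 7 or 8 letters, which most windows reach: Mgll and G0s2 8 (74.5%), Plin4 7 (86.6%) and Pnpla2 7 (99.6%). These matches describe letters in a window and are not binding sites.

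Pnpla2 encodes adipose triglyceride lipase, which takes the first fatty acid from stored triglyceride. Its ratios were 0.24 and 0.50 in fenofibrate mice, 0.20 and -0.20 in lovastatin mice, and 0.29 in HFC replicate 1, with -0.17 put back. They straddled 0, and the overall ratio of 0.26 had a limma adjusted p of 0.619, with a 95% interval of -0.12 to 0.64.

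Mgll encodes monoglyceride lipase, which completes the breakdown. It was at 0.84 and 0.66 in fenofibrate mice, 0.24 and 0.31 in lovastatin mice, and 0.14 in HFC replicate 1, with 0.10 put back. Both fenofibrate mice were above all others, and 20.1% of features were higher without overlap in fenofibrate against lovastatin. The ratio over all HFC-fed mice was 0.48 (SE 0.123, limma adjusted p = 0.294), and that of fenofibrate mice to the pool was 0.75 (SE 0.185, limma adjusted p = 0.473).

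G0s2 encodes a small protein that binds adipose triglyceride lipase and inhibits it. It had ratios of -0.70 and -0.09 in fenofibrate mice, 0.94 and 0.75 in lovastatin mice, and 0.20 and 0.08 in HFC mice. As read, the 3 groups did not overlap, with fenofibrate below the pool, HFC just above it and lovastatin highest. Of features with all 4 arrays, 20.2% had fenofibrate below HFC without overlap. Lovastatin was above HFC for 12.9% and fenofibrate below lovastatin for 20.2%. The share with all 3 groups apart was not counted. With the fenofibrate ratios turned, the fenofibrate mice would be at 0.70 and 0.09, above the pool and overlapping the HFC mice. Averaged over all HFC-fed mice, the ratios as read cancelled to 0.05 (SE 0.131, limma adjusted p = 0.916).

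Lpl encodes lipoprotein lipase itself. Its ratio was 2.54 and 2.12 in fenofibrate mice, 0.68 and 1.29 in lovastatin mice, and 1.92 and 1.70 in HFC mice. As read, the groups did not overlap, with fenofibrate highest and lovastatin lowest, and all 6 were above the pool. Of features with all 4 arrays, 19.3% had fenofibrate above HFC without overlap. Lovastatin was below HFC for 18.1% and fenofibrate above lovastatin for 20.1%. As for G0s2, the share with all 3 groups apart was not counted. With the fenofibrate ratios turned, the fenofibrate mice would be at -2.54 and -2.12, the lowest of the 6. Group means were 2.33 ± 0.297 with fenofibrate, 0.99 ± 0.431 with lovastatin and 1.81 ± 0.156 on HFC alone (SD, n = 2 each).

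Over all HFC-fed mice Lpl rose by 1.86 log2 units (SE 0.142, 95% interval 1.51 to 2.22), a 3.64-fold difference, at a limma adjusted p of 0.0200. The call was lost when any fenofibrate or HFC array was left out and kept when either lovastatin array was. The ratio was 1.76 and 1.97 without the first or second fenofibrate array, at limma adjusted p of 0.431 and 0.392, and 1.84 and 1.89 without the first or second HFC array, at 0.103 and 0.0799. With the arrays scaled to a common spread it was 2.05 at an adjusted p of 0.0559. Turning the fenofibrate ratios gave -0.47 (limma adjusted p = 0.904).

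Angptl4 encodes a secreted inhibitor of lipoprotein lipase, induced by fasting and by PPARs in mice. It read -1.46 and -0.98 in fenofibrate mice, -1.03 and -1.64 in lovastatin mice, and 0.83 and 0.15 in HFC mice. The 4 drug-treated mice were below the pool and both HFC mice above it. Lpl ratios were above 0 in all of the same mice. Over all HFC-fed mice Angptl4 averaged -0.82 (SE 0.169), 0.566 of the pool, at a limma adjusted p of 0.166.

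Against the pool, each group alone gave no call at an adjusted p of 0.05 in limma, for these genes or any feature (0.0% of features with fenofibrate, 0.0% with lovastatin and 0.0% on HFC alone). At an unadjusted p under 0.05, fenofibrate counted 4 of the 10, Lpl, Angptl4, Plin5 and Mgll, beside 7.59% of all features, and with the block put back Cidec entered (5 of 10, beside 8.5%). Lovastatin counted 5 of the 10, Lpl, Angptl4, Plin4, Plin5 and G0s2, beside 10.5%. HFC alone counted 3, Lpl, Plin2 and Plin5, beside 4.7%. Plin2 has 1 HFC mouse in that fit, and with the block put back Plin2 (0.39) left the count and Plin4 (1.23) entered it (3 of 10, beside 6.7%). Lpl with fenofibrate stood at 2.33 (limma adjusted p = 0.107). Its adjusted p was 0.036 without either lovastatin array, 0.214 without either HFC array, and 0.998 and 1.0 without the first or second fenofibrate array. It was 0.0172 with array weights and 0.0168 without the noisiest features, both past the threshold.

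The lovastatin calls turned on which mouse was kept, and a lone mouse takes its spread from the other groups. Without lovastatin replicate 2, 3742 features (19.8%) passed in limma against the pool, among them Plin4 (1.68), Plin5 (1.73), Cidec (2.06) and Cidea (-2.08). Without lovastatin replicate 1, 0 features passed, and the same 4 genes stood at 0.86, 0.77, 0.21 and 0.08. The comparisons of the 3 groups share the pool, so their values are not independent of each other.

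The drug groups were then set against HFC alone, where the pool cancels. The 10 genes held no call at an adjusted p of 0.05 in limma for fenofibrate against HFC (0.0% of features), lovastatin against HFC (0.0%) or fenofibrate against lovastatin (0.0%). At an unadjusted p under 0.05, Angptl4 was the 1 gene of the 10 in fenofibrate against HFC (2.83% of features) and the 1 gene in lovastatin against HFC (1.96%). Lpl and G0s2 were the 2 in fenofibrate against lovastatin (5.47%). With the block put back, Mgll joined Angptl4 in fenofibrate against HFC (3.95% of features) and Lpl joined it in lovastatin against HFC (3.02%).

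Angptl4 differed from HFC by -1.71 with fenofibrate (95% interval -2.69 to -0.73, limma adjusted p = 1.0) and by -1.82 with lovastatin (-2.81 to -0.85, limma adjusted p = 0.974). Both comparisons use the same 2 HFC mice. Fenofibrate minus lovastatin was 0.11, with an interval of -0.87 to 1.10 that spans 0. Among all features tested, Angptl4 ranked 17 by p in lovastatin against HFC and 35 in fenofibrate against HFC.

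Lpl differed from HFC by 0.52 with fenofibrate (limma adjusted p = 1.0) and by -0.82 with lovastatin (limma adjusted p = 0.974). Its fenofibrate mice exceeded its lovastatin mice by 1.34 (95% interval 0.52 to 2.17, limma adjusted p = 0.703). Without lovastatin replicate 2 that difference was 1.65 and passed (limma adjusted p = 0.0389), which leaves lovastatin replicate 1, the widest array, as the lone lovastatin mouse, assumed to vary like the other groups. With the fenofibrate ratios turned, the difference was -4.14 from HFC (limma adjusted p = 0.0331) and -3.32 from lovastatin (limma adjusted p = 0.0426).

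G0s2 with fenofibrate was below lovastatin by 1.24 units (difference -1.24, 95% interval -2.00 to -0.48, limma adjusted p = 0.703). Against HFC it differed by -0.54 with fenofibrate (limma adjusted p = 1.0) and by 0.70 with lovastatin (limma adjusted p = 0.974).

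For Plin4, fenofibrate minus lovastatin was -0.99 (limma adjusted p = 0.703). Mgll in fenofibrate minus HFC was 0.61 (limma adjusted p = 1.0), with 1 HFC mouse in the fit. For Cidea and Cidec the intervals of fenofibrate minus HFC ran from -3.01 to 2.20 and from -2.01 to 2.90, too wide to show a difference of 2 units in either direction.

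Where all 4 arrays of 2 groups were measured, non-overlap was common across the array. In fenofibrate against HFC, Lpl was higher without overlap (19.3% of features) and Angptl4, Plin5 and G0s2 lower (20.2%), of 4 genes with all arrays. In lovastatin against HFC, G0s2 was higher (12.9%) and Lpl and Angptl4 lower (18.1%). In fenofibrate against lovastatin, measured on all 4 arrays for all 10 genes, Lpl, Pnpla2 and Mgll were higher (20.1%) and Plin4 and G0s2 lower (20.2%).

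**Figure D2:**
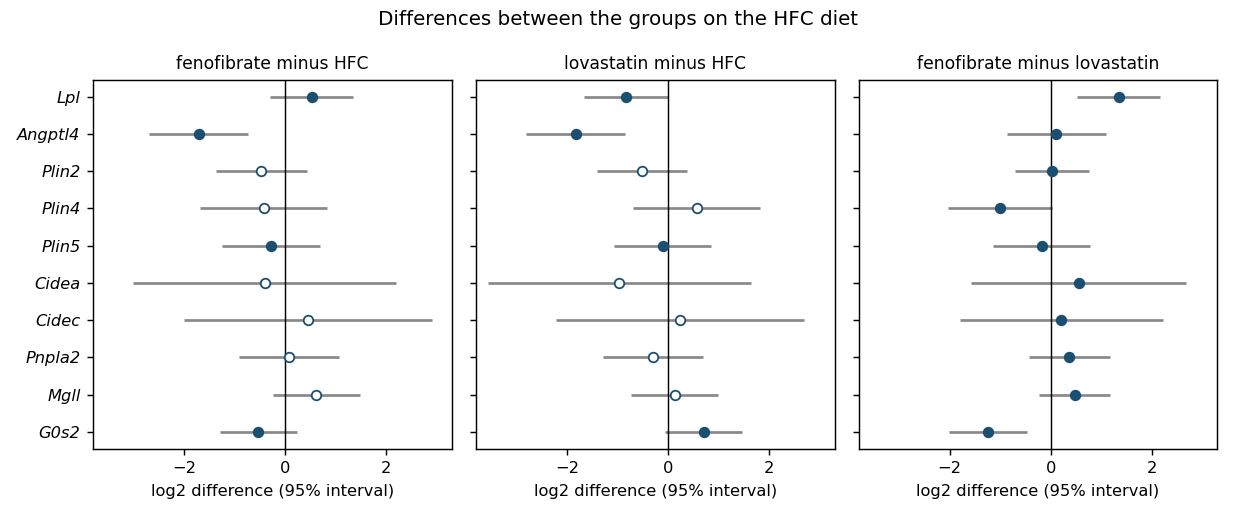
Difference between groups in log2 units (x axis) with its 95% interval for the 10 genes (rows), in fenofibrate minus HFC, lovastatin minus HFC and fenofibrate minus lovastatin. Open circles mark genes with 1 HFC mouse in the fit. The intervals of Angptl4 lie below 0 in both comparisons with HFC, and none of the differences passed the adjusted test.

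Genes around lipoprotein lipase were examined next, as 18 measured partners and uptake receptors of 20 listed. In the comparison of all HFC-fed mice with the pool, 10 were above 0 and 8 below. Their median was 0.09 against 0.01 over all features, and 0 passed the limma test. At an unadjusted p under 0.05, 4 were higher and 2 lower, against 10.8% of all features in either direction. Apoc2, the apolipoprotein that activates the lipase, read 0.72 and 0.76 in fenofibrate mice, 1.19 and 0.97 in lovastatin mice, and 1.65 and 1.17 in HFC mice. Its overall ratio was 0.99 (limma adjusted p = 0.0522), and all 6 mice were above the pool.

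Apoc3, which inhibits the lipase and remnant clearance, was lowest with fenofibrate, at -1.35 and -1.39, against -0.42 and -0.80 with lovastatin and -0.68 in the 1 HFC mouse used. Its overall ratio was -1.01 (limma adjusted p = 0.0969). Angptl8, a partner of the angiopoietin-like inhibitors that feeding induces, was at 0.89 and 0.29 with fenofibrate, 2.08 and 1.77 with lovastatin, and 1.08 and 1.89 on HFC alone (overall 1.15, limma adjusted p = 0.0848). Scarb1, the HDL receptor, averaged 0.77 (limma adjusted p = 0.16).

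Among receptors, Cd36, a fatty acid transporter, was at 1.17 and 1.67 in fenofibrate mice, against 0.15 and 0.07 in lovastatin mice and 0.12 in the HFC mouse used. Vldlr, a receptor for triglyceride-rich lipoproteins, gave 1.18 for fenofibrate minus HFC, Cd36 gave 1.30, Apoe -1.02 and Apoc1 -0.91. Each of the 4 had an unadjusted p under 0.05, as did 2.83% of all features, and a limma adjusted p of 1.0.

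In triglyceride synthesis 15 of 18 listed genes were measured. Over all HFC-fed mice 6 were above 0 and 9 below (median -0.03), and 0 passed in limma. At an unadjusted p under 0.05, 4 were higher and 1 lower, against 10.8% of all features in either direction. Mogat1, which adds a fatty acid to monoacylglycerol, read 2.34 and 2.40 with fenofibrate, -0.66 and -0.22 with lovastatin, and -0.55 in the HFC mouse used. It was above the pool in the fenofibrate mice alone among these mice, and fenofibrate minus HFC was 2.92 (limma adjusted p = 1.0). Gpat3, a glycerol phosphate acyltransferase, gave 1.25 in the same comparison (limma adjusted p = 1.0), and Lpin1, a phosphatidate phosphatase, gave -0.81 (limma adjusted p = 1.0). Agpat3, a lysophosphatidate acyltransferase, was above the pool in all 6 mice, with an overall ratio of 0.72 (limma adjusted p = 0.0732).

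**Figure D3:**
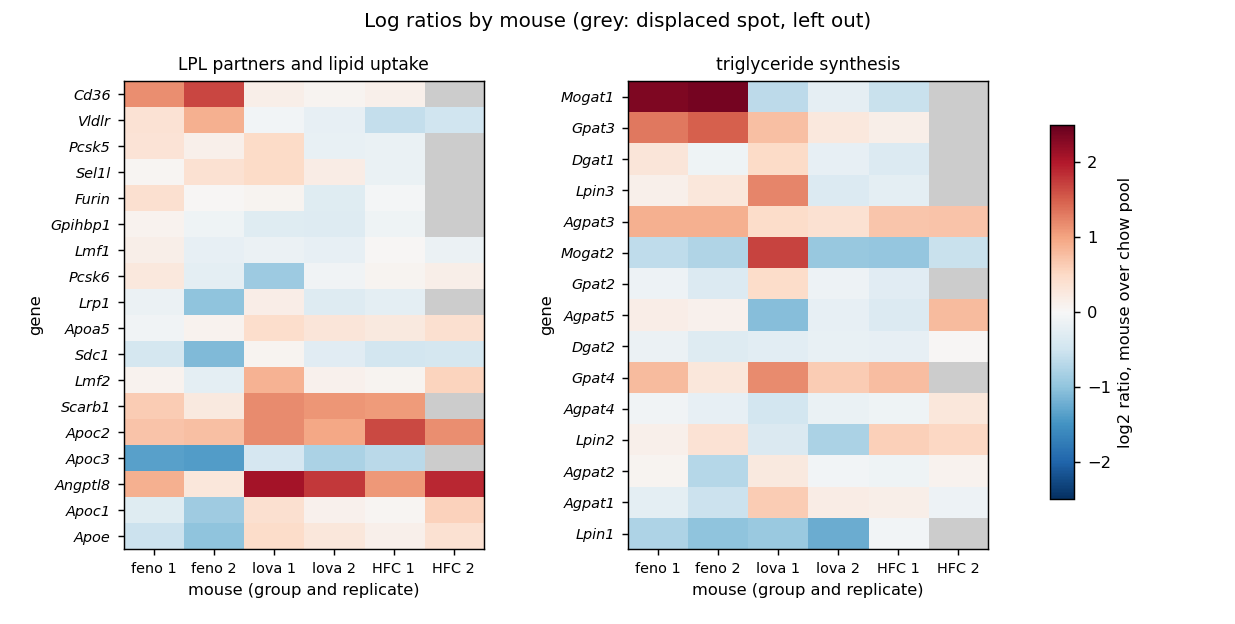
Log2 ratio over the chow pool (colour, red above and blue below) for the partners of lipoprotein lipase and uptake receptors (left) and for triglyceride synthesis (right), genes in rows and mice in columns (feno, fenofibrate; lova, lovastatin), sorted by fenofibrate minus HFC. Mogat1 stands at 2.34 and 2.40 and Cd36 at 1.17 and 1.67 in the fenofibrate mice, and Apoc2 is above 0 in all 6 mice.

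The 18 other droplet proteins were near the pool (13 above 0 and 5 below over all HFC-fed mice, median 0.12). At an unadjusted p under 0.05, 2 were higher and 1 lower, against 10.8% of all features in either direction. Past the limma test 0 were higher and 1 lower, where 0.561% of all features were called. The gene that fell was Ethe1, a mitochondrial persulfide dioxygenase rather than a coat protein, at -1.06 and -1.34 in fenofibrate mice, -1.71 and -1.97 in lovastatin mice, and -1.73 and -1.75 in HFC mice (overall -1.50, SE 0.111, adjusted p = 0.0200). Hsd17b11, a droplet dehydrogenase, averaged 1.06 (limma adjusted p = 0.126), and Hsd17b13, its liver-enriched relative, 0.58 (limma adjusted p = 0.242). Fitm1, which helps droplets bud from the endoplasmic reticulum, gave 0.87 in fenofibrate minus HFC (limma adjusted p = 1.0).

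Other lipases, 20 of 22 listed, divided evenly over all HFC-fed mice, with 10 above 0 and 10 below (median -0.0019), and 0 passed in limma. At an unadjusted p under 0.05, 1 was higher and 2 lower, against 10.8% of all features in either direction. The carboxylesterases Ces3b and Ces3a, triglyceride hydrolases of the hepatocyte, averaged -1.06 and -0.81 (limma adjusted p = 0.178 and 0.206). Pnliprp1, a relative of pancreatic lipase, averaged 2.12 (limma adjusted p = 0.194). Ces1f gave 0.75 in fenofibrate minus HFC (limma adjusted p = 1.0).

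PPARα target genes outside the 10 were followed beside them, with 19 of 24 listed measured. Their medians by mouse were 0.75 and 0.97 with fenofibrate, 0.47 and 0.16 with lovastatin, and 0.46 and -0.09 on HFC alone, the last over 10 of the 19. Over all HFC-fed mice 16 were above 0 and 3 below (median 0.60), and 3 rose past the limma test: Acot1, an acyl-CoA thioesterase (2.89, adjusted p = 0.0105), and the fatty acid hydroxylases Cyp4a14 (2.23, adjusted p = 0.0253) and Cyp4a10 (1.29, adjusted p = 0.0341), where 0.17% of all features were called higher. In fenofibrate minus HFC the median was 0.75 against -0.02 over all features, 15 of 19 were above 0 and 0 passed in limma (8 higher at an unadjusted p under 0.05, where 2.83% of all features were counted in either direction). Acot1 was at 3.76 and 4.05 in fenofibrate mice, 1.89 and 1.63 in lovastatin mice, and 2.48 and 1.48 in HFC mice. The fenofibrate mice were the highest for Acot1, while Angptl4, itself a known PPARα target, was at -1.46 and -0.98 in the same mice.

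**Figure D4:**
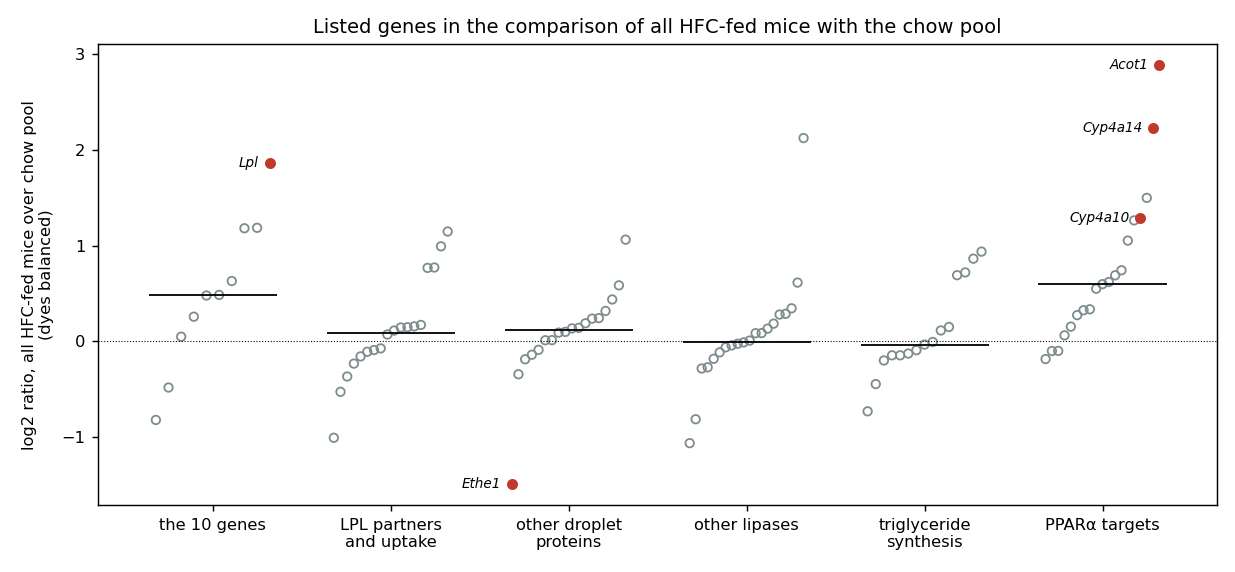
Log2 ratio of all HFC-fed mice over the chow pool with both dye orientations given equal weight (y axis), 1 circle per gene, sorted within each list (x axis), with a bar at the list's median. Filled circles passed the limma test at an adjusted p of 0.05: Lpl (1.86), Ethe1 (-1.50), Acot1 (2.89), Cyp4a14 (2.23) and Cyp4a10 (1.29).

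Markers of fat cells were followed because adipocytes express Lpl and most coat genes. Of 10 listed, 9 were measured. Their medians by mouse were 0.09 and -0.03 with fenofibrate, 0.31 and 0.03 with lovastatin, and -0.08 and 0.07 on HFC alone. The last median covers 7 of the 9. Over all HFC-fed mice 0 passed in limma. At an unadjusted p under 0.05, 1 was lower, against 10.8% of all features in either direction. The lowest was Car3, also abundant in hepatocytes, at -1.31 (limma adjusted p = 0.0896), and Fabp4, the fatty acid carrier of fat cells, was at 0.19. Hepatocyte markers (9 of 10 listed) had medians of -0.63 and -1.05 with fenofibrate, -0.48 and -0.64 with lovastatin, and -0.53 and -0.34 on HFC alone, the last over 7 of the 9. Ahsg, a secreted liver glycoprotein, fell by 1.26 over all HFC-fed mice (limma adjusted p = 0.0459), and 8 of the 9 were below 0. At an unadjusted p under 0.05, 7 of the 9 were lower, where 10.8% of all features were counted in either direction. Their part in the ratios of the 10 genes was not tested.

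Genes with the pattern most like a member were ranked by the root mean square difference of log2 ratios over the arrays used, among genes with no displaced spot. For Lpl, over 6 arrays, they were Fabp2 (0.376), Ifi27l2b (0.377), Unc79 (0.446), Cyp3a25 (0.446) and Cyp3a11 (0.516). Fabp2, an intestinal fatty acid carrier, read 2.58 and 2.26 with fenofibrate, 1.58 and 1.35 with lovastatin, and 1.80 and 1.69 on HFC alone. For Angptl4 the differences were larger, from 0.55 for Pyroxd2 to 0.609 for Txnip, with Cdx4, Mdn1 and Brs3 between.

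Over the 5 arrays that exclude HFC replicate 2, the genes most like Plin2 were 4930519F09Rik (0.105), Rpl39 (0.118), Poli (0.127), Ubqln1 (0.131) and Thumpd3 (0.145). Those most like Cidec were Gpnmb (0.323), Socs3 (0.357), Rab11fip4 (0.358), Tnfrsf26 (0.377) and Prelid2 (0.444). Gpnmb encodes a glycoprotein of lipid-laden macrophages. Plin2 lay near the pool, where many genes lie, and its near neighbours differed from it less than those of Cidec did.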

How the data were processed

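Liver RNA of 6 mice in 3 groups of 2 was measured on 2-colour arrays against 1 pool of 6 chow-fed mice, and per the labels each replicate is another mouse. The authors deposited 1 value for each spot on each array, read here as a log2 ratio. How they scanned, background-corrected and normalized the arrays is not given in the sources used here, and array medians lay between -0.01 and 0.03. Of 22575 spots, 726 were empty and 561 were repeated unnamed controls, which left 21288 probes. The platform annotation gives 1 symbol for 18658 spots, several for 30 and none for 3887. Probes of a gene were averaged, for 19517 features (16887 named). Without intensities no filter on dim probes could be set, and precision is limited by the number of arrays.

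Displaced spots of HFC replicate 2, and 470 repeated named spots that mix displaced and undisplaced values, were set to missing. Group means were fitted to all 6 arrays in R 4.3.3, with limma 3.58.1 and, for array weights, statmod 1.5.0 (3 residual degrees of freedom, 2 for displaced features, prior 2.37). The comparison of all HFC-fed mice weights fenofibrate by 0.5 and lovastatin and HFC by 0.25 each. Benjamini-Hochberg adjustment ran over all features tested, and the threshold was 0.05. A ratio against 0 leaves out the spread between chow mice. A gene-specific dye effect stays in the ratio of a single group and in differences with fenofibrate, and an additive one cancels in the comparison of all HFC-fed mice. The fit was tested on simulated data. Python 3.11.15, numpy 2.4.6, pandas 2.3.3 and matplotlib 3.10.9 prepared data and figures.

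The 10 genes and the lists were chosen with earlier results of these data known. Named genes are the 10, members of each described list past the threshold or among the 4 smallest p in the comparison of all HFC-fed mice or of fenofibrate with HFC, and 5 genes most like Lpl, Plin2, Cidec and Angptl4. Some of these were left out for brevity. Samples of different groups with the same number were not paired in the main fit. Their deviations from the group means correlated at -0.0206 to 0.0311, which cannot tell whether they were handled together. Alternatives were the displaced spots as deposited or put back, median centring, quantile normalization, a common spread, array weights, single probes, the noisiest 10% of features removed, a robust prior, a replicate block and each array left out, with the fenofibrate ratios turned added after seeing the data.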

Additional observations from a re-analysis of the deposited data

Results flagged for a closer look

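For 2 of the 10 genes, every mouse of 1 group lay on 1 side of the pool and every mouse of another group on the opposite side. Angptl4 was below the pool in both fenofibrate mice and both lovastatin mice and above it in both HFC mice, with differences of -1.71 for fenofibrate minus HFC and -1.82 for lovastatin minus HFC, both counted against the same HFC mice. G0s2 was below the pool in both fenofibrate mice and above it in both lovastatin mice and both HFC mice, with differences of -1.24 for fenofibrate minus lovastatin and -0.54 for fenofibrate minus HFC. Over all features measured on the 4 arrays, the first group lay below the pool and the second above it for 6.17% in fenofibrate against HFC, 4.75% in lovastatin against HFC and 6.57% in fenofibrate against lovastatin. These shares count 1 direction in 1 comparison each. The flag took either direction in any comparison, and the share of features that meet it was not counted. Only 4 of the 10 genes had both HFC mice in the fit. None of the 4 differences passed the limma test after adjustment over all features, and those with fenofibrate cannot be told apart from the change of dye. Both genes would lie above the pool in the fenofibrate mice with those ratios turned.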

How the results depend on the processing

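Of 1082 values of the 10 genes under the planned settings, 1032 kept direction and side of the threshold. Of the others, 6 lost the call, 15 gained one and 29 changed sign, and the cause was not tested. For many of the 1082 the ratio itself could not change, only its adjusted p. An array left out alters no ratio to the pool of the other groups. Single probes alter no ratio of a gene with 1 probe, and the handling of displaced spots none of the undisplaced genes. The count of values kept is thus no measure of robustness. Pnpla2 with lovastatin, 0.00 in the main fit, has no direction and was counted as kept. Its value was -0.20 without lovastatin replicate 1 and 0.20 without replicate 2. The 6 lost calls are those of Lpl over all HFC-fed mice: the settings in the report and a replicate block (1.86, limma adjusted p = 0.0892).

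Features called over all HFC-fed mice, 109, became 230 with array weights, 7 with a common spread, 189 with blocks put back, 67 as deposited, 340 without the noisiest features, 193 after quantile normalization and 0 with a replicate block, and 0 to 837 with an array left out. They numbered 25 without HFC replicate 2, 5 without HFC replicate 1, 0 without either fenofibrate array, and 228 and 837 without lovastatin replicate 1 or 2. Against the pool, where no feature was called, blocks put back, removal of noisy features and quantile normalization gave 32, 96 and 14 for fenofibrate, 2, 41 and 4 for lovastatin, and 3, 20 and 9 for HFC. For fenofibrate array weights gave 111, median centring 12 and values as deposited 9. With an array left out, the counts were 0 to 26 for fenofibrate, 0 to 3742 for lovastatin, 0 to 6 for HFC, 0 to 1180 for lovastatin against HFC and 0 to 2018 for fenofibrate against lovastatin. The top counts with lovastatin came without lovastatin replicate 2. Fenofibrate against HFC stayed at 0 under these planned settings.

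Signs changed as follows. As deposited, lovastatin minus HFC was 0.16 for Plin2 and 0.16 for Pnpla2, fenofibrate minus HFC was 0.19 for Plin2 and 0.28 for Cidea, and Pnpla2 on HFC alone was -0.16. Cidea on HFC alone was 0.44 with blocks put back and 0.38 with the replicate block. A common spread turned fenofibrate minus lovastatin to 0.15 for Plin5, lovastatin minus HFC to -0.54 for Cidec and fenofibrate minus HFC to -0.01 for Pnpla2. Quantile normalization gave 0.25, -0.70 and -0.01 there, -0.01 for Plin4 in lovastatin minus HFC and -0.06 for Angptl4 in fenofibrate minus lovastatin. With an array left out, ranges that cross 0 were, for fenofibrate minus lovastatin, -0.19 to 0.42 for Angptl4 (-0.12 without fenofibrate replicate 2), -0.11 to 0.18 for Plin2, -0.66 to 0.30 for Plin5, -0.52 to 1.64 for Cidea and -0.72 to 1.14 for Cidec (-0.26 without fenofibrate replicate 2). For lovastatin minus HFC they were -0.58 to 0.38 for Plin5, -2.04 to 0.12 for Cidea and -0.69 to 1.16 for Cidec. For fenofibrate minus HFC they were -0.03 to 0.92 for Cidec and -0.05 to 0.21 for Pnpla2. Cidea with lovastatin ran from -2.08 without replicate 2 to 0.08 without replicate 1, and G0s2 over all HFC-fed mice from -0.10 to 0.20. Without HFC replicate 1 the 6 displaced genes have no HFC value.

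With the fenofibrate ratios turned, features called were 0 over all HFC-fed mice, 37 for fenofibrate against HFC and 60 for fenofibrate against lovastatin. By construction the fenofibrate ratios to the pool took the opposite sign, to -2.33 for Lpl, 1.22 for Angptl4, -0.38 for Plin2, -0.28 for Plin4, -1.07 for Plin5, 0.44 for Cidea, -1.34 for Cidec, -0.37 for Pnpla2, -0.75 for Mgll and 0.40 for G0s2. Over all HFC-fed mice the sign changed to -0.47 for Lpl, 0.40 for Angptl4, -0.16 for Cidec, -0.11 for Pnpla2 and -0.27 for Mgll. In fenofibrate minus HFC it changed to -4.14 for Lpl, 0.73 for Angptl4, 0.48 for Cidea, -2.24 for Cidec, -0.66 for Pnpla2, -0.89 for Mgll and 0.26 for G0s2. In fenofibrate minus lovastatin it changed to -3.32 for Lpl, -0.72 for Plin2, -2.48 for Cidec, -0.37 for Pnpla2 and -1.02 for Mgll.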

Other observations

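Markers of other liver cells were measured against the chow pool, and 0 of them passed the limma test over all HFC-fed mice. Of the Kupffer cell and macrophage markers 14 of 16 listed were measured. Their medians by mouse were -0.28 and -0.45 with fenofibrate, 0.10 and 0.05 with lovastatin, and -0.01 and 0.03 on HFC alone. The last median covers 8 of the 14. Over all HFC-fed mice 1 was lower at an unadjusted p under 0.05, against 10.8% of all features in either direction. That gene was Cd163, a scavenger receptor of macrophages, at -0.96 (limma adjusted p = 0.129). All 14 had values below 0 in fenofibrate minus lovastatin, with a median of -0.59 against -0.01 over all features. Of these, 3 had an unadjusted p under 0.05, against 5.47% of all features in either direction.

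Stellate cell and fibroblast markers (11 of 12 listed) had a median of -0.09 over all HFC-fed mice. At an unadjusted p under 0.05, where 10.8% of all features were counted in either direction, 2 were lower. They were Dcn at -0.29 and Lum at -0.30, both matrix proteoglycans. Skeletal muscle markers (9 of 9) had a median of -0.44. Against the same 10.8%, 3 were lower, among them the myosin genes Myl1 (-0.94, limma adjusted p = 0.0942) and Myh4 (-0.74, limma adjusted p = 0.082). Pancreas markers (5 of 7) had a median of -0.03 and 0 at an unadjusted p under 0.05. Their part in the values of the 10 genes was not tested.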
